A study of Mus musculus with 6 samples.

Results

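The genes described here encode the machinery that copies DNA in S phase: the replicative helicase and the factors that load and start it, the polymerases and primase, the sliding clamp and its loader, the enzymes that finish the lagging strand, the single-strand binding protein and the enzymes that supply deoxynucleotides. They were chosen by symbol from a fixed list of 39, and a member had to have at least 1 count in the 6 samples. All 39 qualified, among 19921 genes with a count in a table of 20170, and all 39 were among the 15890 genes that passed the filter on low counts.

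The restraint group held 3 colon samples of wild-type C57BL/6J mice given azoxymethane (AOM) at 10 mg/kg, then 2% dextran sulfate sodium (DSS) in 3 rounds, and kept each day for 3 to 4 hours in a 50 mL tube with air holes (replicates 1, 2 and 3 are AS58, AS78 and AS153). The unrestrained group held 3 colon samples of the same strain given the same AOM and DSS without the tube (replicates 1, 2 and 3 are A28, A40 and A49). AOM is a mutagen and DSS an irritant of the colon lining, and together they lead to colorectal tumours, so both groups carry the tumour model and neither is healthy colon. The labels name the cell type as a colorectal cancer cell and the source as colon tissue. They give no age, and they do not say that each sample is a separate mouse, so the spread behind the p-values is that between samples and may be technical.

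Replication starts when the origin recognition complex, with Cdc6 and Cdt1, loads a ring of Mcm2 to Mcm7 onto DNA, and Cdc45 and the GINS complex turn that ring into a moving helicase. Primase and polymerase alpha lay down primers, polymerases epsilon and delta extend them, and the clamp Pcna holds the polymerases on the template. In the colon this machinery is used mainly by dividing cells of the lower crypt and, in tumours, by dividing tumour cells, and many of its genes are transcribed under E2F factors at the G1/S transition.

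A pair of unrestrained libraries stood apart. Unrestrained replicate 1 had the lowest value of 32 of the 39 members, and unrestrained replicate 3 held keratins of squamous epithelium, which the colon lining lacks, with Krt5 at 890 CPM against at most 0.67 CPM in the other samples (CPM are read counts scaled by library size with TMM factors). Values without each of them are given below for the members' count at an unadjusted p under 0.05, and for some lists and single genes only.

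The replication genes stood higher in the restraint samples, the helicase subunits among them. Of the 39 members, 37 had a log2 fold change above 0, where 48.4% of all genes tested did, and their median was 0.37 against -0.01 over all genes. Mcm2, Mcm3, Mcm7 and the helicase activator Cdc45 were called by DESeq2, the only members called by any tool. Pold1, Rpa3, Gins3 and Tk1 stood within 0.09 of 0 on the log2 scale.

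Fold changes come from the quasi-likelihood test of edgeR on the counts, as restraint over unrestrained, and each standard error (SE) was worked out from the F statistic of that test. By that test 0 of 39 members passed a Benjamini-Hochberg adjusted p of 0.05, as did 0% of all genes, and their adjusted p ran from 0.191 to 0.943. At an unadjusted p under 0.05, 20 members were higher, beside 7.82% of all genes tested, and 0 were lower, beside 8.82%. In 26 members every restraint sample lay above every unrestrained one, beside 12.5% of all genes, and the opposite held for 0, beside 11.2%. DESeq2 called 4 members higher, beside 2.28% of all genes, and 0 lower, beside 2.87%. Limma-voom called 0 members, as it did 0% of all genes. At its unadjusted p under 0.05, 20 members were higher, beside 7.94% of all genes.

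**Figure D1:**
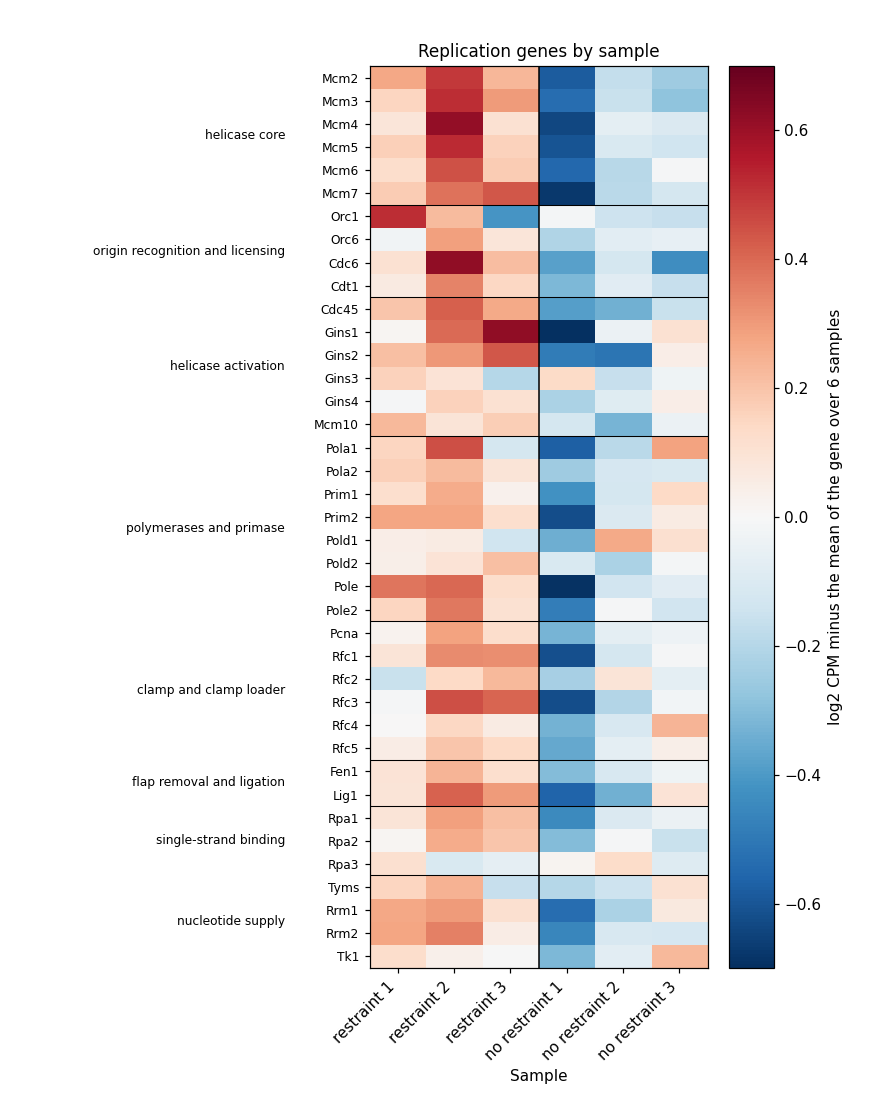
Log2 CPM of each replication gene in each sample, minus the mean of that gene over the 6 samples, with restraint samples on the left and genes grouped by role. Red cells fill most of the restraint columns, restraint replicate 2 is the highest sample for 26 of 39 genes, and unrestrained replicate 1 is the lowest for 32 of 39.

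The samples differed within the groups as well. Restraint replicate 2 held the highest value of 26 members, and unrestrained replicate 1 the lowest of 32 and the highest of 0. The mean log2 CPM of the 39 members was 5.08, 5.25 and 5.08 in restraint replicates 1, 2 and 3, against 4.55, 4.82 and 4.92 in unrestrained replicates 1, 2 and 3. The groups did not overlap on this score, and unrestrained replicate 1 stood apart below its group. Without restraint replicate 2, 6 members had an unadjusted p under 0.05, beside 4.13% of genes; without restraint replicate 3 the number was 13, beside 4.69%, and without unrestrained replicate 1 it was 11, beside 5.21%. Between 35 and 38 members stayed above 0 whichever sample was left out. The 6 members with an unadjusted p under 0.05 whichever sample was left out were Mcm2, Mcm3, Mcm5, Mcm7, Cdc45 and Rrm2.

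The subunits of the helicase ring, which unwinds the parental strands, were all higher with restraint. Mcm2 was at 65.7, 76.7 and 64.0 CPM in restraint replicates 1, 2 and 3, against 36.4, 48.4 and 45.7 CPM in unrestrained replicates 1, 2 and 3. Mcm3 was at 70.7, 90.9 and 78.4 CPM in restraint samples, against 44.0, 57.2 and 52.5 CPM in unrestrained samples. Mcm7 was at 95.6, 110.3 and 114 CPM in restraint samples, against 52.9, 74.1 and 77.6 CPM in unrestrained samples. For each of these 3 subunits the lowest restraint sample stood above the highest unrestrained one, and unrestrained replicate 1 was the lowest of all.

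The log2 fold change was 0.66 ± 0.14 (SE) for Mcm2, 0.64 ± 0.14 for Mcm3 and 0.65 ± 0.16 for Mcm7, which is 1.58, 1.56 and 1.56 times as high with restraint. Their DESeq2 adjusted p was 0.00595, 0.00939 and 0.0235, and their edgeR adjusted p 0.191, 0.191 and 0.195. Mcm5 averaged 70.5 ± 10.6 CPM in restraint samples and 47.8 ± 8.65 CPM in unrestrained samples (SD, n = 3 each), a log2 fold change of 0.56 ± 0.17. Mcm4 averaged 62.8 ± 13.7 CPM in restraint samples and 43.3 ± 8.94 CPM in unrestrained samples, and Mcm6 averaged 109 ± 13.5 CPM in restraint samples and 77.8 ± 14.4 CPM in unrestrained samples. Their log2 fold changes were 0.54 ± 0.21 and 0.49 ± 0.16, and that of Mcm4 was 0.35 without restraint replicate 2. The groups did not overlap for any of the 6 subunits, where 12.5% of all genes tested lay higher without overlap. With all samples the 6 fold changes lay within 0.49 to 0.66, a median of 0.60. Without unrestrained replicate 1 those of Mcm2, Mcm3, Mcm4, Mcm5, Mcm6 and Mcm7 were 0.55, 0.54, 0.37, 0.42, 0.35 and 0.49. Without unrestrained replicate 3 they were 0.70, 0.66, 0.62, 0.63, 0.62 and 0.75. By edgeR, Mcm4 kept an unadjusted p under 0.05 in 3 of the 6 fits with 1 sample left out, and Mcm6 in 5.

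**Figure D2:**
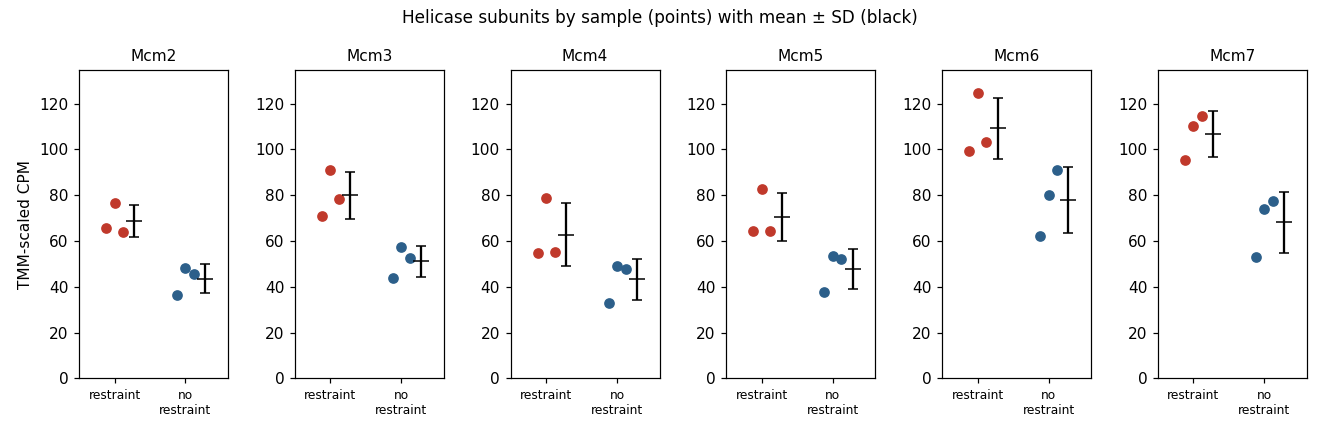
TMM-scaled CPM of the helicase subunits Mcm2 to Mcm7, restraint samples in red on the left and unrestrained samples in blue, with black bars for mean ± SD (n = 3 each). In each panel all 3 restraint points lie above all 3 unrestrained points, as in 12.5% of all genes tested.

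Promoters of the 6 members with the smallest p are shown because E2F factors are known to drive replication genes at G1/S. Each is 250 bases before to 50 bases after a RefSeq start of the gene, on the coding strand, from the build GRCm38.p6. Capitals mark the 8-letter E2F forms TTTCCCGC, TTTGGCGC, TTTCGCGC and TTTGCCGC, searched on both strands. Mcm7 has a second RefSeq window with none of these forms, which is not shown.
Mcm2, chr6:88898731-88899030, minus strand: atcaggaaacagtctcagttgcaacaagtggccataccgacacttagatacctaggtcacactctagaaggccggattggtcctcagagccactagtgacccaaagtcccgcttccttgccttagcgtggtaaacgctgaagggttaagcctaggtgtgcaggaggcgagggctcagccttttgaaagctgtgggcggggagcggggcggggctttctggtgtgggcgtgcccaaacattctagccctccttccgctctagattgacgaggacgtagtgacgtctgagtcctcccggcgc
Mcm3, chr1:20820263-20820562, minus strand: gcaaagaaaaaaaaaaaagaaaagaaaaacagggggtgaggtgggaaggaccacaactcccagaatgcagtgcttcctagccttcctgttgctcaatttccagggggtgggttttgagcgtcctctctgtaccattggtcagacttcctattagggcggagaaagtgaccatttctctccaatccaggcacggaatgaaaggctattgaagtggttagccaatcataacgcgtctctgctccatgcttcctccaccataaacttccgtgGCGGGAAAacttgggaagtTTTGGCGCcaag
Mcm7, chr5:138171834-138172133, minus strand: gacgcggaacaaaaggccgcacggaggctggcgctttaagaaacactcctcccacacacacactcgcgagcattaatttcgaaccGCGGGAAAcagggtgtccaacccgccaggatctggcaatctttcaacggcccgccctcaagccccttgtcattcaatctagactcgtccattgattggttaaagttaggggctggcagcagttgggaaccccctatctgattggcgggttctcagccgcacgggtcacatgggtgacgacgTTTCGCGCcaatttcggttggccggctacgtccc
Cdc45, chr16:18811923-18812222, minus strand: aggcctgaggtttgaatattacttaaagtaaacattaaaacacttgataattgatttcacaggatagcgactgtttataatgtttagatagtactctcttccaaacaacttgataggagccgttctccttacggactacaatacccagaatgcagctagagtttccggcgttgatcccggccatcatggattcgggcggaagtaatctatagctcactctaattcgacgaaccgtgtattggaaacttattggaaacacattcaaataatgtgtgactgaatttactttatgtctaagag
Cdc6, chr11:98907901-98908200, plus strand: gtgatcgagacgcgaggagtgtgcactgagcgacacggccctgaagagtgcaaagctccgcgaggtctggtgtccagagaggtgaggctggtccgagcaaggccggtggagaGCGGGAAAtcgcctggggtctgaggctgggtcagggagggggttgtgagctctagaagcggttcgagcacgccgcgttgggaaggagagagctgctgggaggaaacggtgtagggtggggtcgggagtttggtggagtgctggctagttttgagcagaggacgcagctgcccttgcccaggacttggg
Rrm2, chr12:24708004-24708303, plus strand: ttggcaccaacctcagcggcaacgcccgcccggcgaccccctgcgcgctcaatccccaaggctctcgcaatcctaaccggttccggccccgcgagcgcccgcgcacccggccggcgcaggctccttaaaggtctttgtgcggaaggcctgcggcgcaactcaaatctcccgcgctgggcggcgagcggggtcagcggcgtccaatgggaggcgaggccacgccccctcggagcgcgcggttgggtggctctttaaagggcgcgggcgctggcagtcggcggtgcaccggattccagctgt

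Counting the first transcribed base as 0, Mcm3 held GCGGGAAA, the reverse complement of TTTCCCGC, from 19 to 26 and TTTGGCGC from 38 to 45. In Mcm7 the forms lay at -165 to -158 and at 16 to 23, and in Cdc6 at -138 to -131. Mcm2, Cdc45 and Rrm2 held none in these windows, and a window shifted to another start of the gene would hold other letters.

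Over the members, 32 of 39 matched the promoter table, and 13 of those 32, or 40.6%, held at least 1 of the 8-letter forms in any of their windows. The share was 4.17% of the 11887 tested genes with a promoter and 2.6% of all 27025 genes in the table. It was 25% of the 28 matched genes of a list of other replication factors and 6.25% of the 16 matched genes of the G2 and mitosis list. With the 7-letter forms, which drop the first T, the share was 65.6% of the members, 50% of the other replication factors, 18.8% of the G2 and mitosis genes, 17.9% of the tested genes and 10.9% of all genes in the table. Matches can overlap, as in Mcm5 and Mcm6, where the forms on the 2 strands start 4 bases apart. The 5-letter CCAAT box, which NF-Y binds, was in 65.6% of the matched members on either strand, 42.1% of the tested genes and 93.8% of the G2 and mitosis genes. The 13 members with an E2F form had a median log2 fold change of 0.49, from -0.04 to 0.65, and the 19 without had 0.30, from -0.04 to 0.66. The ranges were nearly the same, and the difference between the medians was not tested.

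Of the genes that mark and license origins, Cdc6 and Cdt1, which load the helicase ring, had an unadjusted p under 0.05, and the origin recognition subunits Orc1 and Orc6 did not. Cdc6 was at 16.9, 24.1 and 18.2 CPM in restraint samples, against 12.1, 14.4 and 11.6 CPM in unrestrained samples, a log2 fold change of 0.64 ± 0.19. Cdt1 was at 22.8, 27.7 and 24.1 CPM in restraint samples, against 17.5, 20.6 and 19.5 CPM in unrestrained samples, a log2 fold change of 0.37 ± 0.14. Neither overlapped between groups, and the edgeR adjusted p was 0.239 for Cdc6 and 0.274 for Cdt1. Orc6, the smallest subunit of the origin recognition complex, did not overlap but had an unadjusted p of 0.143, with means of 21.3 ± 2.36 CPM in restraint samples and 18.2 ± 1.05 CPM in unrestrained samples. Orc1, an ATPase subunit of the same complex, was at 15.1, 12.3 and 7.91 CPM in restraint samples, against 10.4, 9.52 and 9.43 CPM in unrestrained samples. Restraint replicate 3 was thus the lowest sample of all for Orc1, which overlapped between groups. Its log2 fold change of 0.26 was 0.05 without restraint replicate 1 and 0.48 without restraint replicate 3, and that of Orc6, 0.23, was 0.15 without restraint replicate 2.

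Among the genes that switch the loaded helicase on, DESeq2 called Cdc45. It was at 17.8, 20.7 and 18.6 CPM in restraint samples, against 11.9, 12.3 and 13.9 CPM in unrestrained samples. Its log2 fold change was 0.59 ± 0.15, between 0.52 and 0.66 with any sample left out, and its adjusted p was 0.0135 in DESeq2 and 0.195 in edgeR. Mcm10, a scaffold that helps the helicase start, averaged 29.7 ± 1.40 CPM in restraint samples and 23.7 ± 2.36 CPM in unrestrained samples, without overlap.

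The GINS complex joins Cdc45 on the ring as a set of 4 subunits, with log2 fold changes from 0.04 to 0.62. Gins1 was at 11.8, 15.4 and 18.03 CPM in restraint samples, against 5.46, 11.4 and 12.6 CPM in unrestrained samples, a log2 fold change of 0.62 ± 0.34 with overlapping groups, and of 0.33 without unrestrained replicate 1. Gins2 was at 11.1, 11.9 and 13.0 CPM in restraint samples, against 6.86, 6.75 and 9.91 CPM in unrestrained samples, a log2 fold change of 0.61 ± 0.22 without overlap. In the GENCODE annotation 67.3% of the exon bases of Gins2 also lie in exons of Gse1 on the opposite strand, and the sources used here do not give the strand setting of the counting, so reads of both genes cannot be told apart there. Gins4 and Gins3 had log2 fold changes of 0.17 ± 0.12 and 0.04 ± 0.22, and both overlapped between groups. Without unrestrained replicate 1 they were at 0.10 and 0.12. Differences within GINS were not tested.

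Of the catalytic polymerase subunits, Pole had an unadjusted p under 0.05, and Pold1 and Pola1 did not. Pole, the catalytic subunit of the leading-strand polymerase epsilon, was at 24.4, 24.9 and 20.5 CPM in restraint samples, against 11.6, 17.2 and 17.8 CPM in unrestrained samples. Pold1, the catalytic subunit of the lagging-strand polymerase delta, was at 34.9, 35.1 and 30.7 CPM in restraint samples, against 26.7, 40.7 and 36.5 CPM in unrestrained samples. Pole did not overlap between groups (log2 fold change 0.58 ± 0.20), while for Pold1 the unrestrained samples spanned the restraint ones (-0.04 ± 0.17). The difference between the subunits was not tested.

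The accessory subunits Pole2 and Pold2 had log2 fold changes of 0.41 ± 0.21 and 0.23 ± 0.11 without overlap, at unadjusted p of 0.0866 and 0.0748. Polymerase alpha and primase make the RNA-DNA primers. Its second subunit Pola2 averaged 30.0 ± 1.34 CPM in restraint samples and 24.0 ± 1.32 CPM in unrestrained samples, without overlap, a log2 fold change of 0.32 ± 0.11. The catalytic Pola1 overlapped between groups, at 18.5 ± 3.69 CPM in restraint samples and 15.1 ± 4.46 CPM in unrestrained samples. Of the primase subunits, Prim1, the catalytic one, overlapped at a log2 fold change of 0.25 ± 0.17, and Prim2 did not, at 0.42 ± 0.21. Over the 8 genes the median was 0.31. At an unadjusted p under 0.05, 2 of them, Pole and Pola2, were higher, beside 7.82% of all genes tested. Without unrestrained replicate 1 the log2 fold change was 0.11 for Pola1, 0.12 for Prim1, 0.24 for Prim2 and -0.20 for Pold1. Pola1 was also at 0.14 without restraint replicate 2, and without unrestrained replicate 3 Pola1 was at 0.55 and Prim1 at 0.40.

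Pcna, the ring-shaped clamp, was the most abundant member. It was at 189, 226 and 202 CPM in restraint samples, against 148, 177 and 181 CPM in unrestrained samples, a log2 fold change of 0.29 ± 0.12 at an unadjusted p of 0.0553. All restraint samples lay above the unrestrained ones, though restraint replicate 1 stood only just above unrestrained replicate 3.

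The clamp loader, a complex of 5 subunits that opens the ring with ATP, had log2 fold changes from 0.12 to 0.56, with no test of the differences between subunits. Rfc1, its large subunit, was at 65.5, 77.5 and 77.3 CPM in restraint samples, against 40.2, 56.5 and 61.2 CPM in unrestrained samples. Rfc3 was at 29.0, 39.9 and 38.7 CPM in restraint samples, against 19.0, 25.4 and 28.8 CPM in unrestrained samples. The log2 fold changes were 0.48 ± 0.17 for Rfc1 and 0.56 ± 0.20 for Rfc3, neither with overlap. Rfc5 had 0.25 ± 0.14 without overlap, and Rfc2 and Rfc4 had 0.14 ± 0.14 and 0.12 ± 0.19 with overlap. Without unrestrained replicate 1 the log2 fold change was 0.32 for Rfc1, 0.14 for Rfc5, 0.07 for Rfc2 and -0.0049 for Rfc4. Rfc2 was at 0.26 without restraint replicate 1, 0.07 without restraint replicate 3 and 0.23 without unrestrained replicate 2, and Rfc4 was at 0.29 without unrestrained replicate 3. Of the exon bases of Rfc2, Rfc4 and Rfc5, 15.1%, 12.7% and 10.7% also lie in exons of a gene on the other strand, with the same limit as for Gins2.

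The enzymes that join Okazaki fragments were both higher at an unadjusted p under 0.05, beside 7.82% of all genes tested. Lig1, the ligase, was at 56.2, 70.3 and 65.0 CPM in restraint samples, against 35.8, 41.8 and 56.3 CPM in unrestrained samples. Unrestrained replicate 3 lay just above restraint replicate 1, so the groups overlapped, and the log2 fold change was 0.52 ± 0.18. Fen1, the nuclease that trims the displaced flap, averaged 43.0 ± 2.35 CPM in restraint samples and 35.03 ± 3.37 CPM in unrestrained samples, without overlap. Of its exon bases 78.8% are shared with an antisense gene in the annotation, with the same limit as for Gins2.

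Replication protein A coats the unwound strand as a trimer. Its large subunit Rpa1 was at 84.1, 96.6 and 91.6 CPM in restraint samples, against 58.0, 73.7 and 76.9 CPM in unrestrained samples, a log2 fold change of 0.39 ± 0.13. Rpa2 had 0.31 ± 0.14, also without overlap. Rpa3, the small subunit, was at 40.3, 34.7 and 35.6 CPM in restraint samples, against 37.8, 40.8 and 35.005 CPM in unrestrained samples, and its log2 fold change was -0.04 ± 0.11 with overlap.

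In the supply of deoxynucleotides, both subunits of ribonucleotide reductase stood higher, and thymidylate synthase and thymidine kinase overlapped between groups. Rrm2, the subunit that limits the enzyme in S phase, was at 59.9, 63.3 and 51.4 CPM in restraint samples, against 36.1, 45.9 and 45.7 CPM in unrestrained samples. Rrm1, the large subunit, was at 112, 114 and 99.9 CPM in restraint samples, against 64.0, 79.5 and 97.2 CPM in unrestrained samples. Their log2 fold changes were 0.45 ± 0.14 and 0.44 ± 0.16, with restraint replicate 3 the lowest of its group for both.

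Tyms, which makes thymidylate from deoxyuridylate, was at 48.1, 51.2 and 38.7 CPM in restraint samples, against 37.6, 39.03 and 46.6 CPM in unrestrained samples. Tk1, the salvage kinase of S phase, was at 40.3, 37.9 and 37.0 CPM in restraint samples, against 29.8, 35.2 and 43.3 CPM in unrestrained samples. Their log2 fold changes were 0.16 ± 0.15 and 0.09 ± 0.15, and unrestrained replicate 3 was the highest sample of all for Tk1. Without that sample they were at 0.26 and 0.24, without unrestrained replicate 1 at 0.10 and -0.03, and Tyms was at 0.08 without restraint replicate 2 and 0.28 without restraint replicate 3. A pseudogene of Tyms is a row of its own in the table, so reads of near-identical stretches may be split between them.

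**Figure D3:**
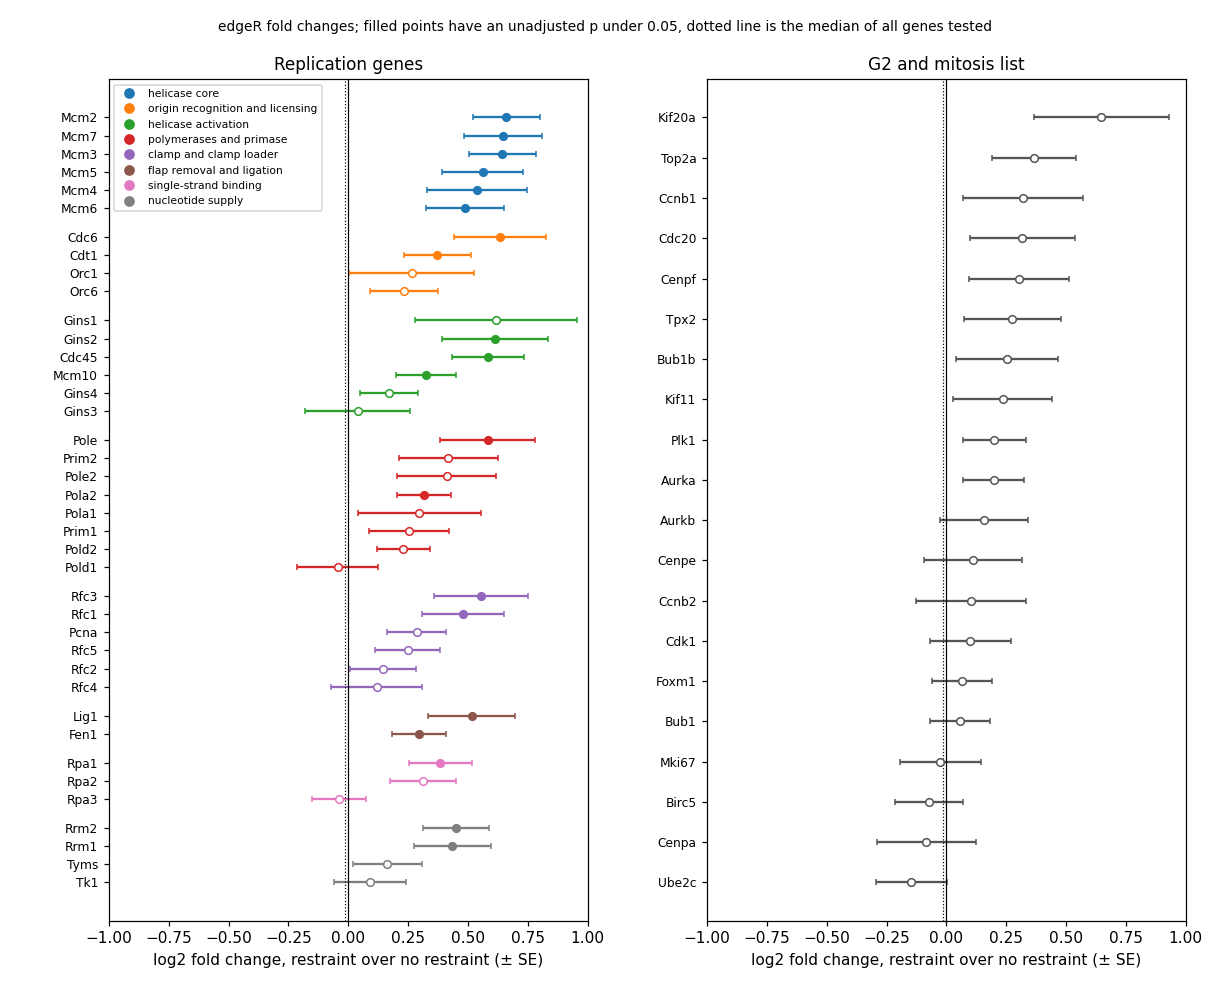
Log2 fold changes (restraint over unrestrained, ± SE) of the 39 replication genes by role on the left and of 20 G2 and mitosis genes on the right. Filled points, at an unadjusted p under 0.05, are 20 of 39 replication genes and 0 of 20 mitosis genes, beside 7.82% of all genes higher and 8.82% lower. Without unrestrained replicate 3, 9 of 20 mitosis genes were higher at that p, beside 7.76% of all genes.

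The deposited FPKM values, which are scaled to transcript length, allow levels to be compared between genes. Pcna had the highest level, at 166 ± 15.4 FPKM in restraint samples and 132 ± 19.2 FPKM in unrestrained samples, followed by Rpa3 at 58.7 ± 4.26 FPKM in restraint samples and 58.5 ± 5.95 FPKM in unrestrained samples. The lowest level in restraint samples was that of Gins3, at 2.83 ± 0.284 FPKM, and in unrestrained samples that of Pole, at 2.16 ± 0.546 FPKM.

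Although the helicase ring holds its 6 subunits in equal number, their transcript levels were not equal. In restraint samples Mcm7 stood at 45.3 ± 5.29 FPKM, Mcm6 at 38.2 ± 4.45, Mcm3 at 28.2 ± 3.57, Mcm5 at 20.8 ± 2.87, Mcm2 at 20.7 ± 1.81 and Mcm4 at 17.8 ± 3.65 FPKM. In unrestrained samples the order was the same, with 28.2 ± 6.52 FPKM for Mcm7 and 11.9 ± 2.91 FPKM for Mcm4. In both groups Mcm5 and Mcm2, and Mcm2 and Mcm4, differed by less than the larger of their SDs. Within GINS, Gins4 led at 22.4 ± 1.64 FPKM in restraint samples and 19.3 ± 2.41 FPKM in unrestrained samples, and Gins3 was the lowest at 2.83 ± 0.284 FPKM in restraint samples and 2.66 ± 0.160 FPKM in unrestrained samples.

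**Figure D4:**
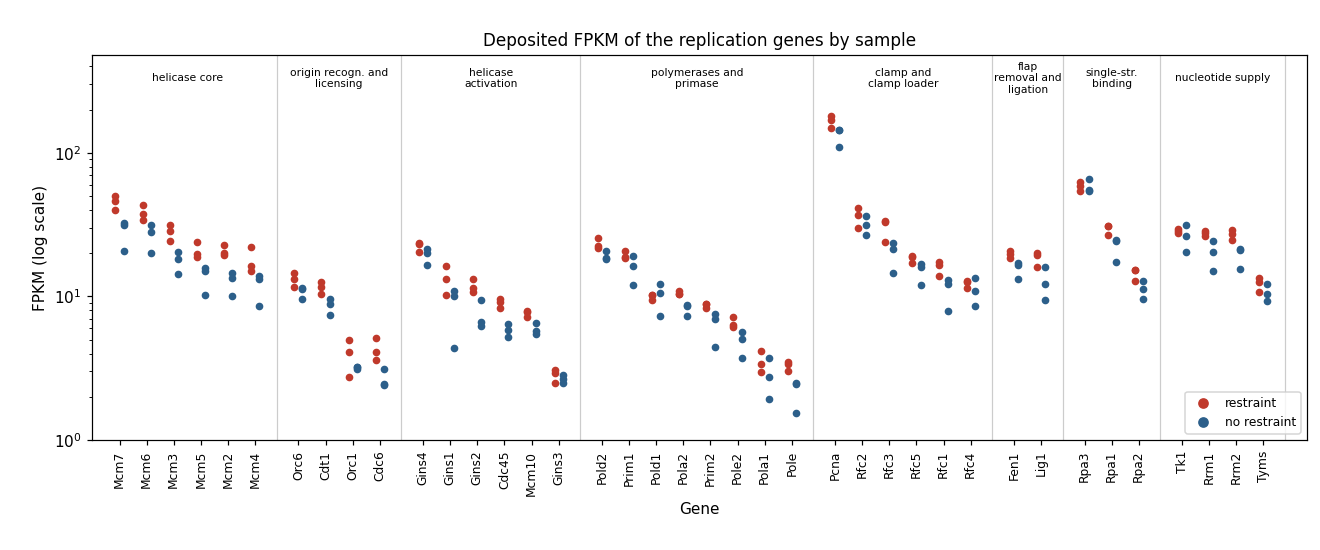
Deposited FPKM (log axis) of each replication gene in each sample, restraint in red and to the left of unrestrained in blue, with genes ordered by level within each role. Pcna lies highest, at means of 166 FPKM in restraint samples and 132 FPKM in unrestrained samples, and Gins3, Pole and Pola1 lie near the bottom.

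Other genes of the pathway were found on both sides of 0. Of 36 further replication factors, 27 had a log2 fold change above 0 and 9 below, with a median of 0.16. At an unadjusted p under 0.05, 10 were higher, beside 7.82% of all genes tested, and 2 lower, beside 8.82%. By edgeR or DESeq2, 0 were called, where DESeq2 called 2.28% of all genes higher and 2.87% lower. Timeless, of the fork protection complex, averaged 25.8 ± 4.02 CPM in restraint samples and 14.7 ± 4.40 CPM in unrestrained samples. Rnaseh2b, Orc2 and Topbp1, which act in RNA removal, origin recognition and helicase activation, had log2 fold changes of 0.45 ± 0.15, 0.36 ± 0.12 and 0.39 ± 0.13. The lower ones were Samhd1, which breaks down deoxynucleotides, at 106, 88.8 and 74.5 CPM in restraint samples against 179, 116 and 132 CPM in unrestrained samples, and Orc4, at 35.5 ± 0.989 CPM in restraint samples against 42.7 ± 1.99 CPM in unrestrained samples. Gmnn, the inhibitor of Cdt1, and Dut, which makes the precursor of thymidylate, had log2 fold changes of 0.15 ± 0.12 and 0.07 ± 0.15, both with overlapping groups.

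Factors that rebuild chromatin behind the fork also stood higher with restraint. Of 8 such genes, 7 were above 0, with a median of 0.52. At an unadjusted p under 0.05, 5 were higher, beside 7.82% of all genes tested, and 0 lower, beside 8.82%. Uhrf1, which brings the maintenance methyltransferase to new DNA, was at 63.5, 81.2 and 65.0 CPM in restraint samples, against 37.6, 45.3 and 44.2 CPM in unrestrained samples. Chaf1a and Chaf1b, subunits of the histone chaperone that Pcna recruits, had log2 fold changes of 0.58 ± 0.15 and 0.74 ± 0.18. DESeq2 called these 3 higher, beside 2.28% of all genes tested. Its adjusted p was 0.0017, 0.021 and 0.0117 for Uhrf1, Chaf1a and Chaf1b, and edgeR gave 0.191, 0.195 and 0.195. Dnmt1, the methyltransferase itself, averaged 105 ± 2.94 CPM in restraint samples and 76.8 ± 15.3 CPM in unrestrained samples, and Nasp, a histone carrier, 94.5 ± 7.46 CPM in restraint samples and 78.2 ± 8.15 CPM in unrestrained samples. Asf1a, another histone chaperone, lay lower without overlap, at a log2 fold change of -0.08 ± 0.12 and an unadjusted p of 0.511.

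The E2F, RB and G1/S list, of regulators upstream of these genes, had a median of 0.03. At an unadjusted p under 0.05, 4 of 24 were higher, beside 7.82% of all genes tested, and 1 lower, beside 8.82%. E2f1, an activating E2F, was at 11.9, 18.2 and 12.7 CPM in restraint samples, against 7.26, 10.8 and 8.91 CPM in unrestrained samples. Its groups did not overlap, restraint replicate 2 was the highest as it was for most members, and the log2 fold change was 0.67 ± 0.25. Cdk4 and Ccne1, a kinase and a cyclin of the G1/S step, had log2 fold changes of 0.77 ± 0.25 and 0.44 ± 0.17, and Ccnd3, a D-type cyclin, had -0.36 ± 0.13. E2f5, a repressing E2F, lay lower without overlap, at -0.29 ± 0.13 and an unadjusted p of 0.0671. Ccnd1, cyclin D1, was higher, at a log2 fold change of 0.66 ± 0.11. It was the only gene of this list called by DESeq2 (adjusted p = 4.09e-05). DESeq2 called 2.28% of all genes tested higher and 2.87% lower. The edgeR adjusted p of Ccnd1 was 0.191.

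Genes of G2 and mitosis, which also mark dividing cells, overlapped between the groups in all 20 cases. Of all genes tested, 12.5% lay higher and 11.2% lower without overlap. The median log2 fold change of the 20 was 0.18, and 0 had an unadjusted p under 0.05, beside 7.82% of all genes higher and 8.82% lower. Unrestrained replicate 3 had the highest score of this list, 6.09 against 5.51 and 5.74 in unrestrained replicates 1 and 2, while the restraint samples were at 6.06, 5.79 and 6.05. Without that sample 9 of the 20 were higher at an unadjusted p under 0.05, beside 7.76% of all genes. The median was then 0.34, so the low count rests on that sample. The members' median without it was 0.44. Without unrestrained replicate 1 the median of the mitosis list was 0.04 and that of the members 0.29, and without the other samples in turn the mitosis median lay between 0.13 and 0.25. Mki67 was at 314, 255 and 286 CPM in restraint samples, against 240.0, 273 and 357 CPM in unrestrained samples, and Top2a at 259, 239 and 264 CPM in restraint samples, against 151, 195 and 245 CPM in unrestrained samples.

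Ratios to Mki67, a gene of the G2 and mitosis list, within the same library are given as a description for Mcm2, Mcm3, Mcm7, Pcna and Rrm2. These genes were chosen with earlier results known and include the helicase subunits with the largest fold changes. The Mcm2 to Mki67 ratio of CPM was 0.209, 0.301 and 0.224 in restraint samples, against 0.152, 0.177 and 0.128 in unrestrained samples. On the log2 scale the mean ratios to Mki67 differed by 0.68, 0.66, 0.67, 0.30 and 0.47 for Mcm2, Mcm3, Mcm7, Pcna and Rrm2. Set against Top2a instead, the differences were 0.28, 0.25, 0.27, -0.10 and 0.06, so the size depends on which mitosis gene is the denominator.

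Total counts ran from 27160547 to 33017500 per sample, and the members took 0.170%, 0.197% and 0.186% of them in restraint samples and 0.110%, 0.148% and 0.153% in unrestrained samples. The least counted value of any member was 148 reads. Lists of cell type markers moved with the groups as well, and in bulk tissue fewer cells of a type and less RNA per cell cannot be told apart. The 12 epithelial markers, all in the table, summed to 12075 to 15725 CPM in restraint samples and 14073 to 18508 CPM in unrestrained samples, with overlap. The 8 smooth muscle markers summed to 2423 to 4002 CPM in restraint samples and 5399 to 7276 CPM in unrestrained samples, and the 8 enteric neuron markers to 43.3 to 50.3 CPM in restraint samples and 92.2 to 164 CPM in unrestrained samples, both without overlap, so the samples are not cancer cells alone. The 12 B cell and germinal centre markers, which include cells that divide fast, summed to 35.6 to 235 CPM in restraint samples and 133 to 630 CPM in unrestrained samples, and 7 of the 8 T and NK cell markers were in the table, at 10.8 to 25.9 CPM in restraint samples and 26.02 to 64.6 CPM in unrestrained samples.

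Neutrophil markers summed to 55.3 to 229 CPM in restraint samples and 13.0 to 91.9 CPM in unrestrained samples, with overlap. Their mean log2 CPM did not overlap, with the nearest samples at 2.00 (restraint replicate 1) and 1.78 (unrestrained replicate 2). Fibroblast markers, at 1232 to 1829 CPM in restraint samples and 872 to 1813 CPM in unrestrained samples, overlapped, as did endothelial markers, at 145 to 169.6 CPM in restraint samples and 88.7 to 199 CPM in unrestrained samples. The 10 squamous epithelium markers summed to 38.6 to 65.8 CPM in restraint samples and to 4.28, 22.3 and 2926 CPM in unrestrained replicates 1, 2 and 3, where Krt5 had 0 counts in unrestrained replicate 1. The part of these cell types in the replication gene values was not tested. Without unrestrained replicate 3 the members' count at an unadjusted p under 0.05 was 20 of 39, as with it.

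**Figure D5:**
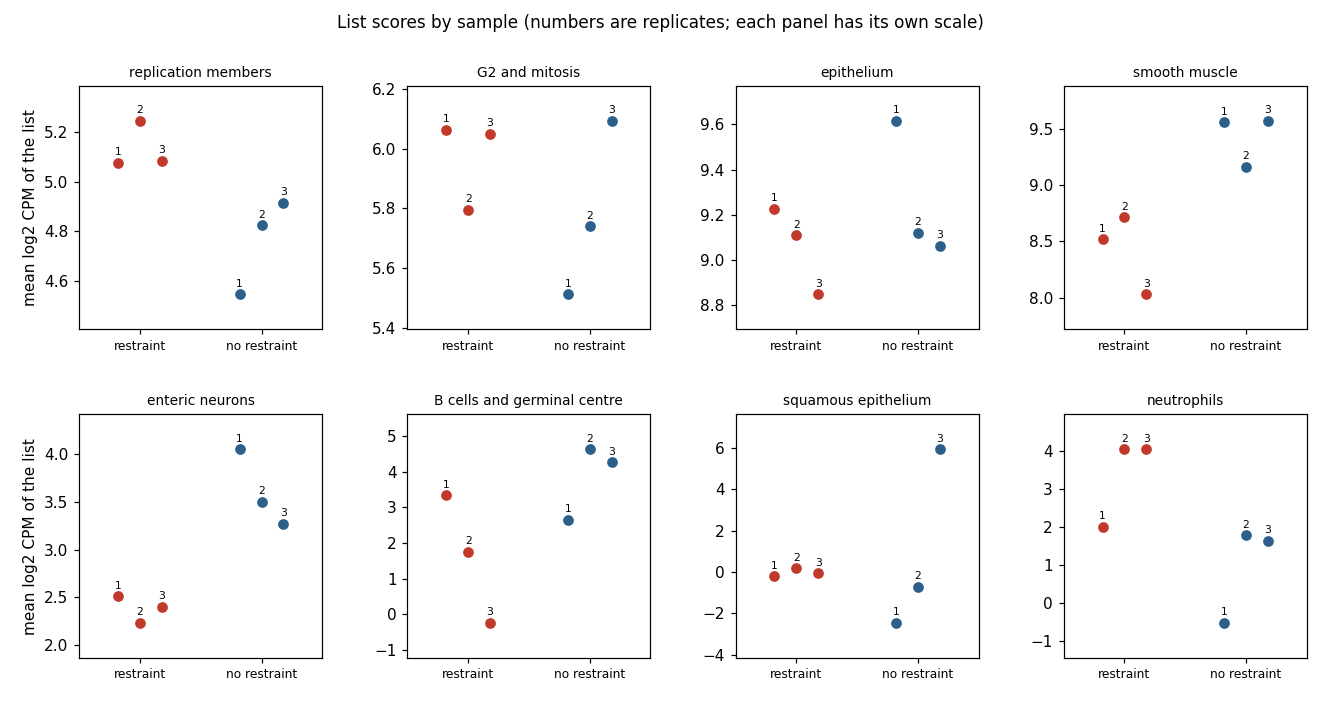
Mean log2 CPM of the replication members, the G2 and mitosis list and 6 marker lists in each sample, restraint in red and left of unrestrained in blue, with replicate numbers beside the points. The replication, smooth muscle, enteric neuron and neutrophil scores do not overlap between groups, though the summed CPM of the neutrophil markers do. The squamous score is highest in unrestrained replicate 3.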

How the data were processed

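RNA from 6 mouse colon samples was sequenced. The authors deposited whole-number read counts per gene and FPKM values, 1 column of each per sample, per the file headers. Per the submitters' processing notes, which give no roles, the tools were edgeR 3.24.3, DESeq2 1.22.1, StringTie 1.3.4d, featureCounts 1.6.2, HISAT2 2.1.0 and fastp 0.19.3, with the build GRCm39. The sources used here state no strand setting or annotation, and 13 members share at least 50 exon bases with another gene in GENCODE vM21, 8 of them with a gene of the table.

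Counts were filtered with filterByExpr, scaled with TMM and tested with edgeR 4.0.16 (robust quasi-likelihood, R 4.3.3), with adjustment over all 15890 genes. DESeq2 1.42.0 and limma-voom (limma 3.58.1) were run on the same genes. List scores are mean log2 CPM with a prior count of 2. Tests were checked on simulated counts with 200 changed genes. Every pair of samples compared differed by more than sampling noise, with a chi-square per gene of at least 40.7.

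Members and lists were chosen with earlier results of these data known. All members are accounted for; of the other lists, up to 6 genes of smallest p with an unadjusted p under 0.05 or no overlap are named, and Mki67, Top2a, E2f1, Gmnn and Dut whatever their values; another gene of this rule is not reported here. Promoters come from RefSeq (GRCm38.p6), a build other than that of the counts. Alternatives were 3 scalings, 2 filters, 2 tools, FPKM with pseudocounts of 1 and 0.1, and each sample left out.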

Additional observations from a re-analysis of the deposited data

How the results depend on the processing

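No member passed the edgeR threshold under any alternative of scaling, filter or left-out sample. DESeq2 called 818 genes and 4 members, and limma on voom or FPKM values called 0 genes and so 0 members. Leaving out each sample in turn gave 6 to 20 members higher at an unadjusted p under 0.05, beside 4.13% to 8.88% of all genes. Without overlap, 26 to 33 members lay on the higher side, beside 14.9% to 21.5% of all genes, and 0 or 1 on the lower side. With all samples that higher-side share of all genes was 12.5%. The members' medians ran from 0.29 to 0.44. With unrestrained replicates 1 and 3 left out together, an alternative chosen after seeing the data, the members' median was 0.32. The median of the single-strand binding genes was then 0.17. No count without overlap is given for that setting, since its unrestrained group holds a lone sample. The lone unrestrained sample is then assumed to vary like the restraint ones. Over all alternatives and members, 606 fold changes kept their direction and their side of the threshold, 4 passed it (those called by DESeq2), and 14 changed sign. The main fit called 0 members, so keeping their side means only staying uncalled, and their sizes could still change. After the change of sign all 14 lay within 0.088 of 0, while the main log2 fold changes of these members reached 0.14, that of Rfc2. The Gins3 log2 fold change ran from -0.029 (without unrestrained replicate 2) to 0.14 over left-out samples and was at -0.024 without restraint replicate 1. The Pold1 log2 fold change ran from -0.20 to 0.088 (without unrestrained replicate 2), with 0.019 without restraint replicate 3 and 0.017 and 0.021 on FPKM at pseudocounts of 1 and 0.1. The Rpa3 log2 fold change ran from -0.099 to 0.019 (without unrestrained replicate 2), with 0.0071 without restraint replicate 2, 0.0052 by library size only, and 0.0076 and 0.0078 on FPKM. Without unrestrained replicate 1, Rfc4 was at -0.0049 and Tk1 at -0.033, and over left-out samples they reached 0.29 and 0.24. Rfc2 was at -0.014 with unrestrained replicates 1 and 3 left out together. The Pcna ratio reversed to -0.10 with Top2a as the denominator. With 7-letter E2F forms 65.6% of matched members, 50% of other replication factors, 17.9% of tested genes and 10.9% of all genes held a match. The causes were not tested. No paired analysis was possible because replicates were numbered in accession order and the labels pair no samples. The lowest count of any member in any sample was 148 reads.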
